A study of Mus musculus with 8 samples.

Results

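The transcription factors that set regional and enterocyte identity in the intestinal epithelium were followed in organoids from WT and MG53-TG mice. The 8 genes, Gata4, Gata6, Pdx1, Onecut2, Cdx1, Cdx2, Hnf4a and Hnf4g, were listed by name and not by a threshold on their values, and all 8 had a value among the 14079 genes with one. MG53-TG mice carry global overexpression of MG53, a TRIM family protein of membrane repair encoded by Trim72, and 4 samples were labelled MG53-TG and 4 WT. The study names the genotypes of its crypt organoids in more than one way, either as MG53-TG and WT or as an Lgr5 reporter and CreERT2 knock-in with and without MG53 overexpression, so that both groups may also carry that allele, which the sample labels do not mention. Both groups were small intestinal crypts cultured in Matrigel in a commercial organoid growth medium, which is meant to yield a culture of epithelium alone. The intestinal segment, the strain, the age and the promoter of the transgene were not stated for these samples, nor whether the 4 samples of a group came from separate animals, so that p-values measure the spread between these samples, which may be technical.

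GATA4 and GATA6 are zinc finger proteins of the gut epithelium, and GATA4 is known for keeping jejunal identity against ileal identity. PDX1 is a homeodomain factor of the duodenum and pancreas, ONECUT2 (HNF6β) a cut-homeodomain factor of the proximal small intestine, and CDX1 and CDX2 are caudal homeodomain proteins that define intestine against stomach, CDX2 being the master regulator. HNF4α and HNF4γ are nuclear receptors that bind the same DNA element and together drive enterocyte genes of lipid absorption and the brush border. Hnf4a is transcribed from an upstream promoter, P2, and a downstream promoter, P1, and its transcripts also differ in the end of 1 coding exon.

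The sequences at which Hnf4a transcripts part from each other are shown first, because the forms measured further on differ in this exon end or start near these promoters. The exon segment lies on chr2:163568980-163569039 (GRCm38, plus strand), at the end of a coding exon that begins at 163568887, and the capitals mark the 30 bases present when the exon ends at 163569039 and absent when it ends at 163569009:
Hnf4a exon end: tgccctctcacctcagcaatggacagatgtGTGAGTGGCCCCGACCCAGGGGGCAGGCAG
The promoter windows of RefSeq (GRCm38.p6, plus strand) run from 250 bases before to 50 bases after a transcription start, at chr2:163506607-163506906 for P2 and chr2:163546905-163547204 for P1, and capitals mark the GATA motif:
Hnf4a P2: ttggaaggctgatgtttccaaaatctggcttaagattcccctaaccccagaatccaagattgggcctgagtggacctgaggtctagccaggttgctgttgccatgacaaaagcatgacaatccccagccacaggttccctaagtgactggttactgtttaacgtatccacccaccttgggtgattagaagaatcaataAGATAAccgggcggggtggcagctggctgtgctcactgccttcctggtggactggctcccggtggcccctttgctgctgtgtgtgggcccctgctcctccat
Hnf4a P1: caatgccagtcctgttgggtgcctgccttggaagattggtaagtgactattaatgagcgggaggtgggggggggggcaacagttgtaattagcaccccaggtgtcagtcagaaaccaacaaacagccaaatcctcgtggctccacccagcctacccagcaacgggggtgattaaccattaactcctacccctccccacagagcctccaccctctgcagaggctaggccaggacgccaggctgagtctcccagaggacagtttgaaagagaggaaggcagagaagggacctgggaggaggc
Motifs were searched on both strands in these windows and in those of Pdx1 and Cdx2. The GATA motif was read as AGATAA. The CDX motif was read as TTTATG and the HNF4 motif as CAAAGTCCA. The GATA letters occurred once, in the P2 window at position -52 from the RefSeq start, and are present in 11.2% of 32851 promoters of that length. The RefSeq starts of the P2 and P1 windows differ from the starts measured further on, at 163506808 and 163547187. The position is thus not one from the measured start. No other match was found in the 4 windows, and the letters of the CDX and HNF4 motifs occur in 11.9% and 0.475% of all promoters. A match in letters is a description and not a binding site.

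RNA was measured as FPKM, that is, fragments scaled to the length of the transcript and to all mapped fragments of the sample, so that levels of different genes could be set side by side. The deposited values belong to transcript events, such as a transcription start or end, and the value of a gene was the sum of its start events, or of its end events where that was higher. The number of reads was not given and the depth is unknown. The FPKM summed over all starts was between 269094 and 284330 in the 8 samples. Trim72 was listed in no WT sample, whereas MG53-TG samples 1 to 4 had 16.4, 27.4, 31.9 and 36.5 FPKM of it. Differences of log2(FPKM + 1) were tested with limma for 10975 genes, with a Benjamini-Hochberg adjusted p of at most 0.05 called, and fold changes on this scale understate those of low genes. For single genes, a two-sided exact permutation test over the 70 relabellings is given too, for which 0.0286 is the smallest possible p.

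Of the 8 factors, 3 were higher in MG53-TG organoids (Hnf4g, Gata6 and Onecut2), 3 were lower (Hnf4a, Cdx1 and Cdx2), and Gata4 and Pdx1 did not pass the limma threshold. Over all genes tested, 44.6% were called, 15.7% as higher and 28.9% as lower, so that changed expression was common in this comparison. The median log2 fold change was -0.08 over the 8 factors and -0.17 over all genes. The values of the 2 groups did not overlap for 7 of the 8 factors, compared with 44.6% of all genes. With median-of-ratios scaling, under which 40.7% of all genes were called, 20.4% as higher and 20.3% as lower, 4 of the factors were higher and 2 were lower, since Gata4 was then called and Cdx1 was not. Each sample is a whole culture, in which fewer cells of a type and less RNA per cell cannot be told apart.

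**Figure D1:**
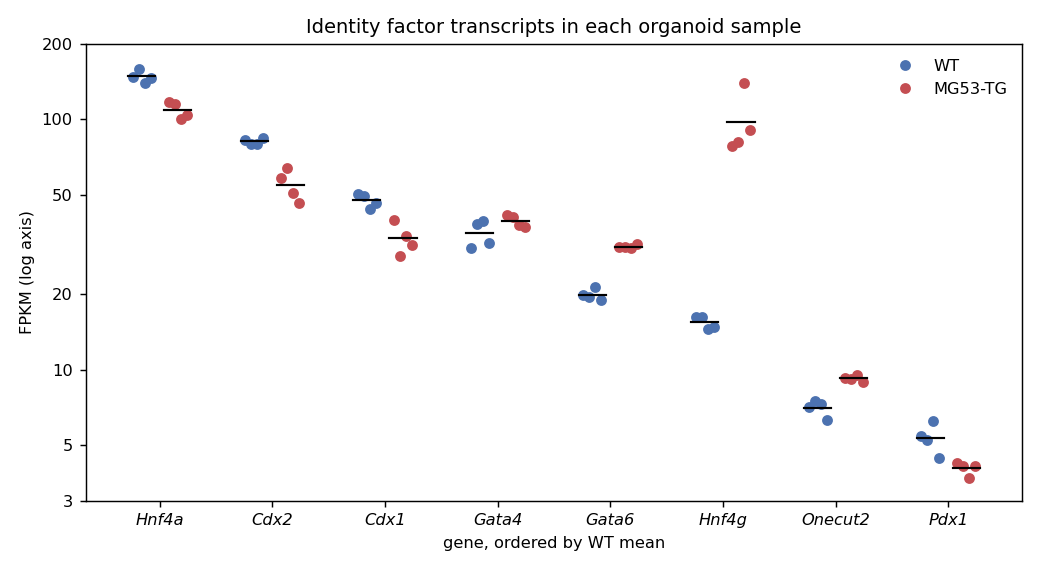
FPKM of the 8 factors on a log axis in each of 4 WT (blue) and 4 MG53-TG (red) organoid samples, with horizontal bars at the group means. The MG53-TG values of Hnf4g lie between 78.0 and 139.7 FPKM, all above the WT values, those of Hnf4a, Cdx2 and Cdx1 lie below the WT values, and those of Gata4 overlap with them.

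Among the nuclear receptors, Hnf4g (ENSMUSG00000017688, chromosome 3, from 3508030 to 3658052, plus strand) showed the largest change of the 8. Its FPKM was 16.3, 16.3, 14.6 and 14.8 in WT samples 1 to 4 and 78.0, 81.6, 139.7 and 91.1 in MG53-TG samples 1 to 4. All MG53-TG samples exceeded all WT samples, and sample 3 was the highest of them. The means were 15.5 ± 0.928 and 97.6 ± 28.6 FPKM (SD, n = 4 each), a 6.30-fold ratio. This was a log2 fold change of 2.54 with a standard error of 0.18 (limma adjusted p = 1.62e-05, exact permutation p = 0.0286), which placed Hnf4g at rank 184 of 10975 genes by size of change.

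Hnf4a (ENSMUSG00000017950, chromosome 2, from 163506808 to 163572910, plus strand) moved in the other direction. Its FPKM was 147.9, 159.0, 140.0 and 146.9 in the WT samples and 116.9, 115.1, 100.1 and 104.3 in the MG53-TG samples. The groups did not overlap, and MG53-TG samples 3 and 4 were the lowest. The size of the change depended on the scaling, with log2 fold changes of -0.25 after median-of-ratios scaling and -0.60 after quantile normalization (limma adjusted p of 0.0289 and 0.00133). The estimated change on the log2 scale was -0.44 with a standard error of 0.08 (limma adjusted p = 0.00325, exact permutation p = 0.0286).

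The balance between both paralogues therefore differed between the groups. On the log2 scale, the ratio of Hnf4a over Hnf4g was 3.11, 3.21, 3.18 and 3.22 in the WT samples, a mean 9.06-fold excess of Hnf4a. In the MG53-TG samples it was 0.58, 0.49, -0.48 and 0.19, a mean of 1.15-fold, and in sample 3 Hnf4g exceeded Hnf4a. The difference of the log2 ratios was -2.98 (exact permutation p = 0.0286, adjusted p = 0.0429 over the 3 ratios tested).

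The caudal factors were both lower in MG53-TG organoids. Cdx2 (ENSMUSG00000029646, chromosome 5, from 147300805 to 147307270, minus strand) was at 83.1, 79.8, 80.1 and 84.4 FPKM in the WT samples and at 58.5, 63.8, 50.9 and 46.6 FPKM in the MG53-TG samples. The WT samples were close together, and all MG53-TG samples were below them. In the limma fit the log2 fold change came to -0.58, with a standard error of 0.11 (adjusted p = 0.00302, exact permutation p = 0.0286).

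Cdx1 (ENSMUSG00000024619, chromosome 18, from 61018862 to 61036199, minus strand) was at 50.3, 49.3, 43.9 and 46.4 FPKM in the WT samples and at 39.8, 28.6, 34.2 and 31.5 FPKM in the MG53-TG samples. The groups did not overlap, and MG53-TG sample 2 was the lowest. This was a log2 fold change of -0.50 with a standard error of 0.11 (limma adjusted p = 0.00777, exact permutation p = 0.0286). With median-of-ratios scaling, which raises the median over all genes by 0.16 on the log2 scale, the change of Cdx1 was -0.31 and was not called (limma adjusted p = 0.0702). The log2 ratio of Cdx1 over Cdx2 averaged -0.78 in WT and -0.70 in MG53-TG organoids, a difference of 0.08 (exact permutation p = 0.571, also after adjustment). This value rested on MG53-TG sample 2, at a log2 ratio of -1.13, since the other MG53-TG samples lay between -0.56 and -0.54, above all WT samples, which lay between -0.85 and -0.68. Without that sample the difference was 0.22, at the smallest p that the exact permutation test then allows (0.0571), and without 1 of the other MG53-TG samples it was 0.03.

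Of the GATA factors, Gata6 (ENSMUSG00000005836, chromosome 18, from 11052064 to 11085635, plus strand) was higher in MG53-TG organoids. Its FPKM was 19.9, 19.5, 21.5 and 19.0 in the WT samples and 30.8, 30.9, 30.6 and 31.8 in the MG53-TG samples. The 4 MG53-TG samples lay within a narrow range, well above all WT samples. The estimated change on the log2 scale was 0.61 with a standard error of 0.08 (limma adjusted p = 0.000514, exact permutation p = 0.0286).

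Gata4 (ENSMUSG00000021944, chromosome 14, from 63198922 to 63271692, minus strand) was at 30.8, 38.1, 39.4 and 32.2 FPKM in the WT samples and at 41.4, 40.6, 38.0 and 37.1 FPKM in the MG53-TG samples. The groups overlapped, since WT samples 2 and 3 lay within the range of the MG53-TG samples. In the limma fit the log2 fold change came to 0.16, with a standard error of 0.10 (adjusted p = 0.234, exact permutation p = 0.171). With median-of-ratios scaling it was 0.35 and passed the threshold (limma adjusted p = 0.0265). The log2 ratio of Gata4 over Gata6 was 0.61, 0.93, 0.85 and 0.73 in the WT samples and 0.41, 0.39, 0.30 and 0.22 in the MG53-TG samples. It was lower in all 4 MG53-TG samples, by -0.45 on average (exact permutation p = 0.0286, adjusted p = 0.0429 over the 3 ratios).

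The 2 factors of the proximal gut had the lowest levels, and Onecut2 was called higher whereas Pdx1 was not called. Onecut2 (ENSMUSG00000045991, chromosome 18, from 64340020 to 64400987, plus strand) was at 7.09, 7.50, 7.29 and 6.33 FPKM in the WT samples and at 9.31, 9.23, 9.52 and 8.95 FPKM in the MG53-TG samples. All MG53-TG samples were above all WT samples. This was a log2 fold change of 0.35 with a standard error of 0.09 (limma adjusted p = 0.0163, exact permutation p = 0.0286).

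Pdx1 (ENSMUSG00000029644, chromosome 5, from 147269959 to 147275848, plus strand) was at 5.42, 5.26, 6.28 and 4.43 FPKM in the WT samples and at 4.23, 4.12, 3.69 and 4.13 FPKM in the MG53-TG samples. The groups did not overlap, but the lowest WT sample, 4, lay close to the highest MG53-TG sample. The estimated change on the log2 scale was -0.33 with a standard error of 0.12 (limma adjusted p = 0.0514, exact permutation p = 0.0286). Without WT sample 4 it was -0.40 and was called (limma adjusted p = 0.0358), whereas with median-of-ratios scaling it was -0.17 (limma adjusted p = 0.282). The deposited tables file the transcripts of Pdx1 under the identifier of the non-coding gene Gm27033. They were taken as Pdx1 because the exon boundaries of their end and of the start at 147269959 are those of Pdx1. The other start, at 147271097, has no annotated boundary and held a mean of 14.2% of the start FPKM.

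**Figure D2:**
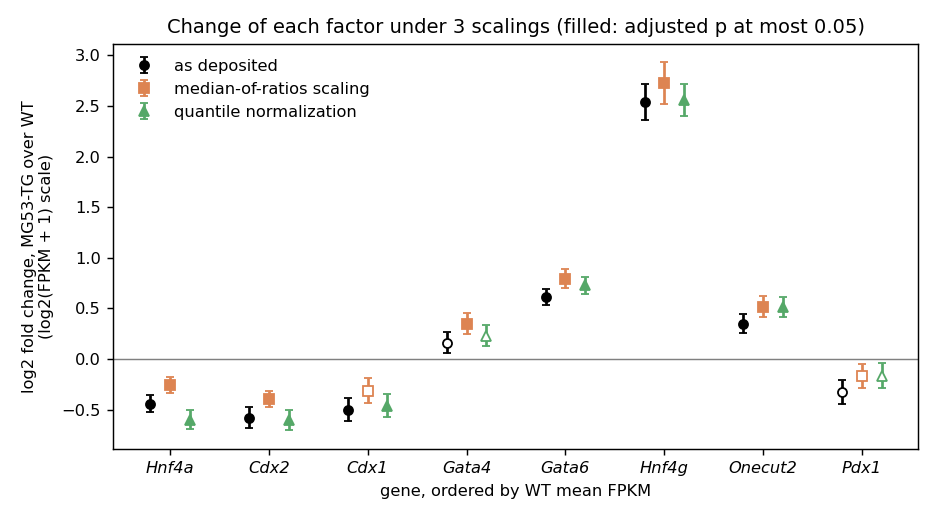
Log2 fold changes (MG53-TG over WT, on the log2(FPKM + 1) scale) of the 8 factors with standard errors, for the values as deposited and after median-of-ratios or quantile scaling. Filled symbols have an adjusted p of at most 0.05, and the open symbols are those of Gata4 (as deposited and quantile), Pdx1 (all scalings) and Cdx1 (median-of-ratios). All directions are the same under the 3 scalings.

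The order of the levels was clear in WT organoids and less so in MG53-TG organoids. In the WT group the mean FPKM fell from Hnf4a (148.5) through Cdx2 (81.9), Cdx1 (47.5), Gata4 (35.1), Gata6 (19.95), Hnf4g (15.5) and Onecut2 (7.05) to Pdx1 (5.35), and no neighbours in this order overlapped. In the MG53-TG group the order was Hnf4a (109.1), Hnf4g (97.6), Cdx2 (54.9), Gata4 (39.3), Cdx1 (33.5), Gata6 (31.0), Onecut2 (9.25) and Pdx1 (4.04). Hnf4a and Hnf4g overlapped there, as did Gata4 with Cdx1 and Cdx1 with Gata6. Hnf4g stood sixth in the WT and second in the MG53-TG order.

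**Figure D3:**
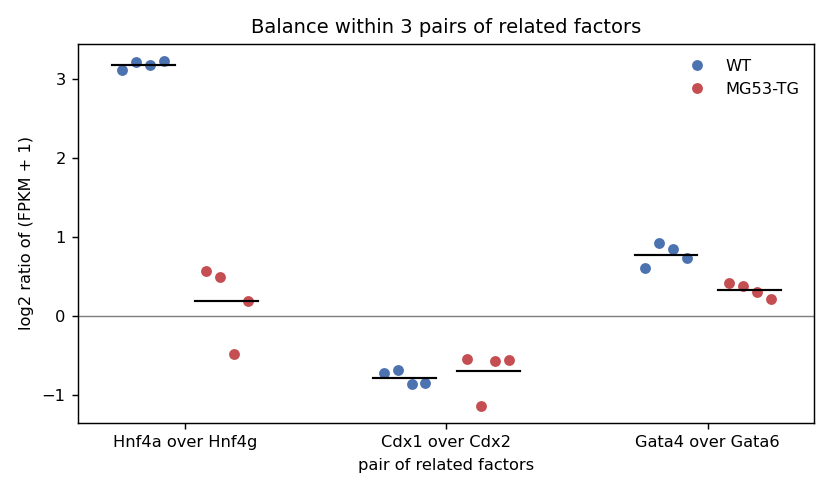
Log2 ratio of the levels within 3 pairs of related factors, in each WT (blue) and MG53-TG (red) sample, with bars at the group means and a line at equal levels. The Hnf4a over Hnf4g ratio lies above 3 in all WT samples and from -0.48 to 0.58 in MG53-TG organoids, whereas the Cdx1 over Cdx2 ratios overlap.

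The starts that make up these sums varied among samples of the same group. For Hnf4a, the P2 start (163506808) was at 14.1, 20.8, 25.4 and 17.9 FPKM in the WT samples and at 6.76, 34.3, 2.71 and 0.22 FPKM in the MG53-TG samples. The MG53-TG samples were thus both above and below the WT range. P2 made up 13.2% ± 3.61 of the start FPKM in WT and 9.63% ± 13.6 in MG53-TG organoids (SD, n = 4 each; exact permutation p = 0.657). This difference of -3.61 percentage points rested on single samples, at -10.3 without MG53-TG sample 2 and -0.47 without MG53-TG sample 4. The P1 start (163547187), the main start in every sample, was at 133, 136, 114 and 129 FPKM in the WT samples and at 110, 80.5, 96.8 and 104 FPKM in the MG53-TG samples.

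For Hnf4g, the downstream start (3634150) was at 12.8, 11.7, 10.1 and 11.4 FPKM in the WT samples and at 75.1, 77.3, 137 and 17.1 FPKM in the MG53-TG samples. The upstream start (3508030) was at 3.49, 4.62, 4.46 and 3.48 FPKM in the WT samples and at 2.90, 4.29, 2.72 and 73.9 FPKM in the MG53-TG samples. MG53-TG sample 4 thus had the increase at the upstream start and the other MG53-TG samples had it at the downstream start. In that sample alone an event at 73.8 FPKM was listed that joins the upstream exon to 2 inner exons, the second of which ends where the downstream first exon ends. The share of the upstream start was 25.9% ± 4.25 in WT and 23.0% ± 38.8 in MG53-TG organoids (SD, n = 4 each; exact permutation p = 1.00). These means rested on MG53-TG sample 4, at 81.2%, since the other MG53-TG samples were at 3.72%, 5.26% and 1.95% and all WT samples between 21.4% and 30.6%. Without that sample the difference went from -2.92 to -22.3 percentage points (exact permutation adjusted p = 0.229).

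For Gata6, the annotated start at 11052470 held 15.7%, 30.4%, 83.7% and 88.9% of the start FPKM in the WT samples, compared with 93.6% to 95.4% in MG53-TG organoids. The rest in WT samples 1 to 3 lay mostly at the starts at 11051490 and 11047597, which are absent from the annotation and were not listed in any MG53-TG sample. The mean share of the annotated start differed by 39.9 percentage points, and by 26.9 to 51.3 without 1 sample. The exact permutation p was 0.0286, or 0.229 after adjustment over the 8 starts tested. For Gata4, the upstream start (first exon from 63271584 to 63271692) was listed in WT samples 2 and 3 and in MG53-TG samples 1 and 3 (exact permutation p = 0.714). No start share of any factor passed after adjustment.

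**Figure D4:**
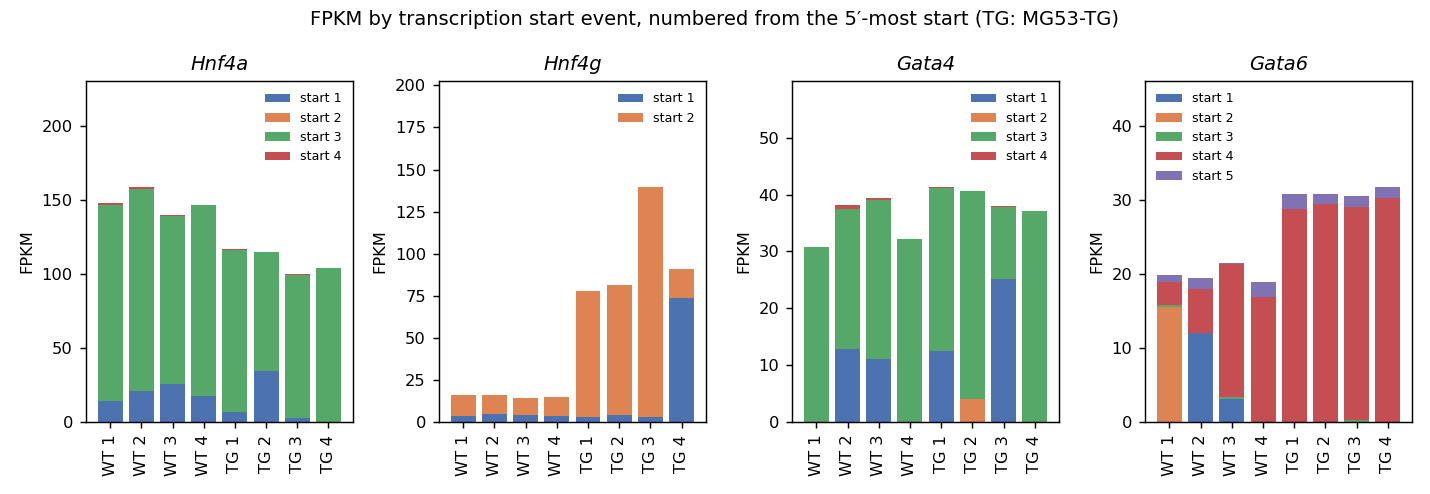
FPKM of Hnf4a, Hnf4g, Gata4 and Gata6 in each sample, stacked by transcription start event, with starts numbered from the most upstream. Start 1 is P2 and start 3 is P1 of Hnf4a. The total of Hnf4g is high in all 4 MG53-TG samples, but lies at start 1 in sample 4 and at start 2 in samples 1 to 3.

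The exon end of Hnf4a shown above was listed in every sample and is given as a description. Transcripts with the 30 bases were at 104, 105, 114 and 110 FPKM in the WT samples and at 76.2, 80.5, 74.0 and 76.6 FPKM in the MG53-TG samples. Transcripts without them were at 28.7, 31.5, 23.5 and 19.0 FPKM in the WT samples and at 33.3, 34.1, 22.8 and 27.4 FPKM in the MG53-TG samples. The longer form was lower in all MG53-TG samples, and the shorter form overlapped between the groups. The share of the longer form was 80.9% ± 3.85 in WT and 72.5% ± 3.20 in MG53-TG organoids (SD, n = 4 each), with a lowest WT value of 76.9% and a highest MG53-TG value of 76.5%. Start and exon end values are read from the same assembled transcripts and are not independent. In WT sample 3 and MG53-TG sample 2 the longer form alone equalled the P1 start, at 114 and 80.5 FPKM, and the shorter form lay outside it. In all other samples both forms together equalled the P1 start. The share of the longer form thus covers different transcripts among samples, which limits its comparison between the groups. For Cdx1, an additional exon from 61024042 to 61024144 was listed as included in WT samples 2 and 3 alone, at 4.49 and 4.19 FPKM.

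The other transcription factors of the intestinal epithelium showed no common direction. Of 22 factors listed, 19 were tested, and 5 were higher, 8 lower and 6 not called, with a median log2 fold change of -0.45. Without MG53-TG sample 3, 5 were called lower. Creb3l3, a bZIP factor of lipid metabolism, had 1.95 ± 0.408 FPKM in WT and 44.4 ± 12.3 FPKM in MG53-TG organoids (SD, n = 4 each), a rise of 3.92 on the log2 scale (limma adjusted p = 2.52e-06). Nr1h4, which encodes the bile acid receptor FXR, rose from 7.41 ± 0.306 to 28.8 ± 7.56 FPKM, and Maf rose from 0.0404 ± 0.0809 to 2.30 ± 0.727 FPKM (SD, n = 4 each). Foxa2, a forkhead factor of the endoderm, fell from 2.22 ± 0.630 to 0.292 ± 0.394 FPKM (log2 fold change -1.34, limma adjusted p = 0.00223). Genes needed a mean of 0.5 FPKM over all samples to be tested. Maf passed this filter through the MG53-TG group alone and Foxa2 through the WT group alone. Their calls, which the counts above include, are thus a description and not a test. Klf5, a Krüppel-like factor of crypt cells, was at 61.4 and 72.5 FPKM in WT and MG53-TG organoids and was not called (limma adjusted p = 0.0535), but was called with median-of-ratios scaling and without MG53-TG sample 2 (adjusted p of 0.0236 and 0.0270). Esrra, an orphan nuclear receptor, was at 30.3 to 46.2 FPKM in the WT samples and at 29.1, 67.0, 77.1 and 81.7 FPKM in the MG53-TG samples. It was not called (log2 fold change 0.62, limma adjusted p = 0.137), which rested on MG53-TG sample 1, without which the log2 fold change was 0.95 (adjusted p = 0.00316). Of the GATA, ONECUT and CDX relatives and cofactors, Gata5 alone was tested. It was at 4.70, 5.06, 4.98 and 5.70 FPKM in the WT samples and at 3.92, 2.44, 3.32 and 4.13 FPKM in the MG53-TG samples, and it was called lower (log2 fold change -0.47, limma adjusted p = 0.0291), but not with median-of-ratios scaling, nor without WT sample 2, 3 or 4 or MG53-TG sample 3.

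Genes with known links to the HNF4 factors in the intestine were mostly higher. Of 13 tested, 12 were higher and none was lower, with a median log2 fold change of 3.29. This list shares genes with others and is not independent of them. Apoc3, Fabp1, Apoa4, Creb3l3, Mttp and Treh are also among the proximal genes described further on. Fabp2 and Anpep are also enterocyte markers, and Creb3l3 is also among the other transcription factors. Apoc3, an apolipoprotein of chylomicrons, was at 12.5, 6.90, 6.48 and 7.75 FPKM in the WT samples and at 153.3, 181.8, 457.7 and 476.9 FPKM in the MG53-TG samples. Fabp1, the liver-type fatty acid binding protein, rose from 256 ± 38.9 to 5814 ± 361 FPKM, and Apoa4 from 39.4 ± 2.95 to 838 ± 239 FPKM (SD, n = 4 each). Their log2 fold changes were 4.51 and 4.33 (limma adjusted p of 9.77e-08 and 1.32e-06).

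Genes linked to CDX2 were divided. Of 9 tested, 5 were higher, 2 lower and 2 not called, with a median log2 fold change of 1.05. Lct is also among the proximal genes, Mep1a among the distal genes, and Sis and Vil1 among the enterocyte markers. Sis, the sucrase-isomaltase of the brush border, was between 67.5 and 74.5 FPKM in the WT samples and at 561, 631, 1033 and 1111 FPKM in the MG53-TG samples (log2 fold change 3.46, limma adjusted p = 8.69e-06). Lct, the lactase gene, and Guca2b, the uroguanylin gene, rose by 3.29 and 3.11 on the log2 scale. Muc2, the goblet cell mucin, fell from 25.3 ± 3.71 to 8.94 ± 4.69 FPKM (log2 fold change -1.55, limma adjusted p = 0.00886), and Cdx1 itself was the other lower gene. Cdh17, an intestinal cadherin, at 210 and 178 FPKM, was not called (limma adjusted p = 0.0829), but was called lower after quantile normalization, at -0.43 on the log2 scale (adjusted p = 0.00521). Guca2a, the guanylin gene, was at 68.8 to 83.2 FPKM in the WT samples and at 43.2, 43.8, 138.3 and 170.4 FPKM in the MG53-TG samples. MG53-TG samples 1 and 2 were thus below and samples 3 and 4 above all WT samples, and the gene was not called (limma adjusted p = 0.791), with a log2 fold change of 0.16 that was -0.09 without sample 3 and -0.19 without sample 4.

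Regional genes of enterocytes were compared because these factors are known for them. Of 29 proximal genes tested, 28 were higher, with a median log2 fold change of 2.69. All 8 general enterocyte markers, none of them in this list, were higher too, with a median of 2.60. The rise was thus not particular to proximal genes. Aldh1a1, a retinaldehyde dehydrogenase, had 7.77 ± 1.05 FPKM in WT and 180 ± 101 FPKM in MG53-TG organoids (SD, n = 4 each), a rise of 4.18 on the log2 scale (limma adjusted p = 6.04e-05). The exception, named after its values were seen, was Cybrd1, the duodenal ferric reductase, at 59.7, 63.2, 75.8 and 65.6 FPKM in the WT samples and at 13.2, 10.2, 8.29 and 7.89 FPKM in the MG53-TG samples (log2 fold change -2.64). Of 9 distal genes tested, 5 were higher, 2 lower and 2 not called, with a median of 1.08, and their summed level was low, at 19.7 to 24.8 FPKM in the WT samples compared with 52.5 to 142 FPKM in MG53-TG organoids. Clec2h, Slc51b, Slc51a and Mep1a rose by 3.63, 3.19, 2.08 and 1.32 on the log2 scale, of which Slc51a and Slc51b encode the subunits of the basolateral bile acid transporter. Naaladl1, a brush border peptidase, and Slc34a2, a phosphate transporter, were not called (limma adjusted p of 0.582 and 0.154), of which Slc34a2 was called higher without MG53-TG sample 2 (adjusted p = 0.0181). The lower ones, also named after their values were seen, were Slc10a2, the ileal bile acid transporter, and Fgf15, the ileal hormone induced by bile acids. Both stayed under 2 FPKM in every sample with a value, with log2 fold changes of -0.64 and -1.11, the latter without WT sample 1, in which Fgf15 was missing. Leaving out WT sample 1, 2 or 4 left 1 of them called, and leaving out WT sample 3 left 0. Slc10a2 and Fgf15 passed the filter of a mean of 0.5 FPKM through the WT group alone. Slc51a, and Hsd17b6 of the proximal genes, passed it through the MG53-TG group alone. The calls of these genes, which the counts include, are thus a description and not a test. Fabp6, the ileal bile acid binding protein, had no value.

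**Figure D5:**
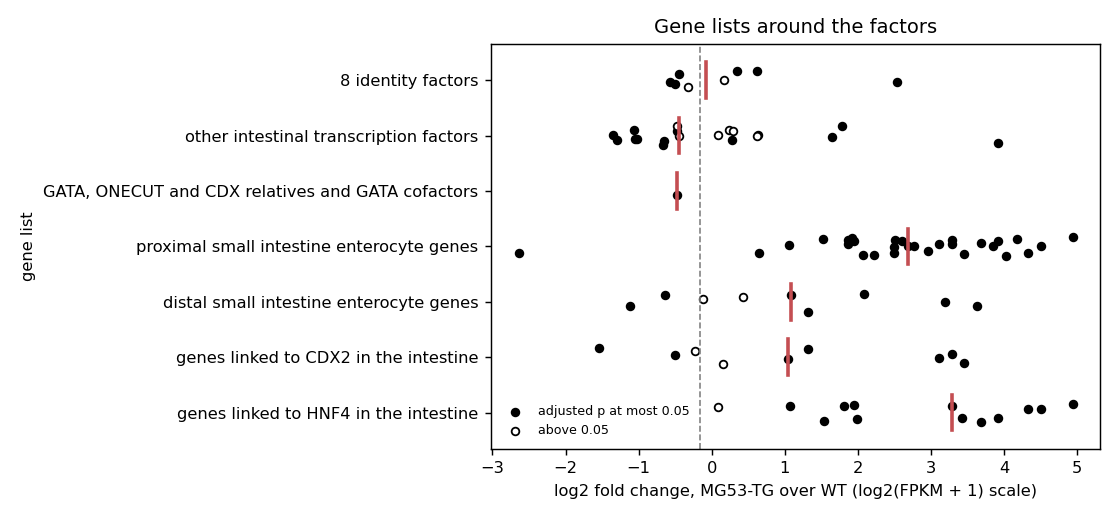
Log2 fold changes (MG53-TG over WT) of the tested genes of each list, with filled points for an adjusted p of at most 0.05, red bars at list medians and a dashed line at the median of all genes tested (-0.17). The 8 factors lie on both sides of 0, whereas the proximal enterocyte and HNF4-linked genes lie to the right except for Cybrd1.

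Within the MG53-TG group, samples 3 and 4 had the higher values of Apoc3, Apoa4, Sis, Aldh1a1 and Trim72 and the lower values of Cdx2 and Hnf4a. Markers of cell types moved with the genotype as well. All 8 enterocyte markers were higher, with summed levels of 703 to 811 FPKM in the WT and 4922 to 5304 FPKM in the MG53-TG samples. Of 6 stem cell markers, 5 were lower, with summed levels of 499 to 672 and 56.1 to 292 FPKM. Without 1 sample, 4 to 6 were called lower. Slc12a2 was not called without WT sample 1, 2, 3 or 4 or MG53-TG sample 3 (limma adjusted p of 0.0509 to 0.0688). Smoc2, not called in the main fit, was called lower without MG53-TG sample 1 or 2, but its log2 fold change was 0.30 with end events only. The part of these shifts in the levels of the 8 factors was not tested. Of 9 stomach markers, Sox2, Gkn1, Gkn2, Muc5ac, Muc6 and Gif had no value or were at 0, and the list summed to 1.74 to 2.42 FPKM in the WT and 1.87 to 6.94 FPKM in the MG53-TG samples. Tff1, a trefoil peptide, was called higher among them (limma adjusted p = 0.0459), with values that overlapped between the groups, and the call was lost without WT sample 1, 2, 3 or 4 or MG53-TG sample 1, 3 or 4. Of 7 pancreas markers, Cpa1, Prss2, Pnlip, Ins2 and Ptf1a had no value or were at 0, and the list summed to 42.0 to 79.5 FPKM in the WT and 30.9 to 60.4 FPKM in the MG53-TG samples. Most of this was Gcg, which enteroendocrine L cells also express and which was not called (limma adjusted p = 0.235). Cela1, an elastase, was higher, at 5.89, 5.81, 6.14 and 6.21 FPKM in WT and 11.9, 14.0, 11.1 and 11.5 FPKM in MG53-TG organoids (limma adjusted p = 0.000233). Of 8 mesenchyme markers, Pdgfra, Pdgfrb and Acta2 had no value or were at 0, whereas both markers tested, the collagen genes Col1a2 and Col3a1, were called higher (limma adjusted p of 0.00383 and 0.000683). They were listed in no WT sample and were at 0.739 to 2.07 and 0.904 to 1.62 FPKM in MG53-TG samples 2 to 4, with no value in sample 1, which their fits left out. Both passed the filter on low values through MG53-TG samples 2 to 4 alone, so that their calls are a description and not a test. Col1a1, also listed in no WT sample and with no value in MG53-TG sample 1, was under the filter. In the fit without a filter, which left that sample out, Col1a1 was called higher (limma adjusted p = 0.000261), again as a description. This list summed to 0 to 0.0881 FPKM in the WT and 0 to 4.70 FPKM in the MG53-TG samples, the lowest of the latter being sample 1, without values for the collagen genes. The part of these genes in the results was not tested. Of the immune markers, Cd79a, Csf1r and Itgam were likewise absent. Cd68, a macrophage marker and the 1 immune marker tested, was called lower (log2 fold change -1.84, limma adjusted p = 0.000557). Lyz2, a lysozyme of macrophages whose reads may be shared with its close copy Lyz1, was under the filter, at 0 to 0.0616 FPKM in WT and 0.119 to 0.296 FPKM in MG53-TG organoids, and was called higher in the fit without a filter (limma adjusted p = 0.0227). The summed levels of this list were 3.77 to 9.24 FPKM in the WT and 0.609 to 1.47 FPKM in the MG53-TG samples.

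The genes whose profile over the 8 samples was most like that of Hnf4a, by the root mean square difference of log2(FPKM + 1) from each gene's mean among 9168 genes, were Arid4a, Pigs, Atl3, Kat6a and Pdp2, with differences of 0.0535 to 0.0573. Those most like Hnf4g were Gm21049, Pbld2, Selenop, Cyp2d26 and Hapln4, with differences of 0.148 to 0.186, of which Gm21049 is annotated as a pseudogene. Cyp2d26 is also among the proximal genes, and Selenop, which encodes the plasma selenium carrier, was at 58.6 and 352.8 FPKM in WT and MG53-TG organoids.

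Antisense genes overlap 3 of the factors, and whether the libraries keep strand was not stated. Hnf4aos, which overlaps the 5′ part of Hnf4a including P2, was listed in no WT sample, whereas MG53-TG samples 1 to 4 had 1.12, 1.06, 6.34 and 5.43 FPKM. 1010001N08Rik, which overlaps the start of Gata6, was at 6.25, 4.36, 5.34 and 4.72 FPKM in the WT samples and at 6.13, 13.8, 8.48 and 13.0 FPKM in the MG53-TG samples. These levels are below the totals of the factors they overlap, but in MG53-TG samples 3 and 4 Hnf4aos was above the P2 start of Hnf4a, at 2.71 and 0.22 FPKM. Plut, which overlaps the start of Pdx1, was at 1.19, 0.72, 0.473 and 0.782 FPKM in the WT samples while MG53-TG samples 1, 2 and 4 had 0.635, 0.947 and 0.468 FPKM and sample 3 had no value. Their part in the values of Hnf4a, Gata6 and Pdx1 was not tested.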

How the data were processed

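The authors trimmed reads with Cutadapt (1.9.1) and aligned them with HISAT2 (2.0.1) to mm10, and the submitters' processing notes also list HTSeq (0.6.1) and DESeq2. They deposited FPKM per transcript event and sample. The tool that made these event tables is not given in the sources used here. FPKM fixes no depth, and read counts could not be recovered (smallest value 1e-06).

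From 757935 deposited rows, 16032 exact duplicates were dropped. Of 128369 events, 94.8% matched a GENCODE M21 exon boundary (GRCm38) and 98.3% were given a gene, by boundary and strand, then by locus, then by the deposited identifier. For 6.05% of assigned events this was another gene than the identifier named. Where a gene was absent from a sample, it was taken as missing if the rest of the group had a median of 0.5 FPKM or more (579 genes) and as 0 if not. Genes averaging 0.5 FPKM or more were fitted with limma 3.58.1 (lmFit, eBayes with trend) in R 4.3.3, with a pseudocount of 1 and no block. The fit was tested on simulated data, of which no result is reported here. Starts with a mean share of at least 5% were compared by exact permutation. Other steps used Python 3.11.15, numpy 2.4.6, pandas 2.3.3 and scipy 1.17.1.

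The 8 factors and all lists were chosen with earlier results of these data known. Named in the text were the factors, Trim72, up to 4 called genes with the largest change and up to 2 uncalled genes with the highest mean per list, and the 5 genes most like Hnf4a and Hnf4g. Genes of the cell type marker lists, and exceptions within a list, were named after their values were seen. Alternatives were another pseudocount, filter, scaling, gene value, start filter or assignment, a replicate block and leaving out each sample. Some results of genes that this rule or the lists name are not reported here.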

Additional observations from a re-analysis of the deposited data

Results flagged for a closer look

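Of 38 groups of 4 samples examined among the levels, start shares and ratios of the 8 factors, 4 held a sample far from the other 3 by Dixon's criterion, where chance gives about 1.9. The log2 ratio of Cdx1 over Cdx2 was -1.13 in MG53-TG sample 2, the sample with the lowest Cdx1. The unannotated Gata6 start at 11051490 held 78.2% of the start FPKM in WT sample 1 and none in the other WT samples. The upstream Hnf4g start at 3508030 held 81.2% in MG53-TG sample 4. The Pdx1 start at 147269959 held 100% in WT sample 4 and between 82.7% and 83.9% in the other WT samples. Depth and read counts behind these shares are unknown, and no cause was tested.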

How the results depend on the processing

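The directions of all 8 factors were the same in every alternative that gave a value. Hnf4g, Gata6, Onecut2, Cdx2 and Hnf4a were called in all of them (Hnf4a at -0.60 to -0.25), including the 8 fits that each left out 1 sample, in which the limma adjusted p of Onecut2 reached 0.0491. Median-of-ratios scaling gave Gata4 a log2 fold change of 0.35, which was called, and Cdx1 one of -0.31, which was not. That of Pdx1 was called at -0.33 with end events only (limma adjusted p = 0.0474) and with a mean of at least 2 FPKM (limma adjusted p = 0.0485), and it ranged from -0.40 to -0.26 without 1 sample, called without WT sample 4. Hnf4a was not fitted from end events, of which only 1 was listed, at 0.715 FPKM in MG53-TG sample 1 alone. Pdx1 had no value from the deposited identifiers alone. The calls over all genes went from 4892 to between 3632 and 5185, and the share of calls that were higher went from 35.1% to 50.1% (median-of-ratios) and 44.7% (quantile).

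Without 1 sample the smallest exact p is 0.0571, and sign flips within replicate numbers allow none under the threshold, so the ratios could not be called there. The log2 ratio difference of Hnf4a over Hnf4g was between -3.11 and -2.76 without 1 sample, that of Cdx1 over Cdx2 between 0.03 and 0.22, and that of Gata4 over Gata6 between -0.51 and -0.40, and -0.52 with end events only (exact permutation adjusted p = 0.0571). With the replicate block both were as in the main analysis, -2.98 and -0.45 (sign-flip adjusted p = 0.188 each). The replicate numbers were not read as pairs, since same-numbered samples correlated between -0.05 and 0.09. With the number as a block, 4433 genes were called and no call of the 8 factors changed. Without 1 sample, start share differences in percentage points were between -5.34 and 16.8 for Gata4 at 63271584, between -10.3 and -0.47 for Hnf4a P2, between -25.5 and -4.90 for Gata6 at 11047597 (the latter without WT sample 2), between -26.1 and 0 for Gata6 at 11051490, between 26.9 and 51.3 for Gata6 at 11052470, between -2.68 and 0.95 for Gata6 at 11053044, between -22.3 (without MG53-TG sample 4) and 4.11 for Hnf4g, and between -8.71 and 1.27 for Pdx1, and none passed. The call of Gata5 was lost with either scaling and with start events only. The CDX2-linked genes called lower numbered 1 after median-of-ratios scaling and 3 after quantile normalization in place of 2. The distal genes called lower ranged from 0 to 2, since those not called were then under the filter. The causes of the other changes were not tested. The unknown depth limits what the low distal genes and single starts can show.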

Other observations

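Enteroendocrine markers, which none of the 8 factors was chosen for, were higher for 5 of 7 tested, with a median log2 fold change of 0.69 and summed levels of 225 to 247 FPKM in the WT and 363 to 513 FPKM in the MG53-TG samples. Tac1, Chgb, Chga, Tph1 and Gip were higher, by 1.502, 1.39, 1.24, 0.69 and 0.50 on the log2 scale, and Gip was not called without WT sample 4 (limma adjusted p = 0.0530), whereas Cck and Sct were not called (limma adjusted p of 0.985 and 0.975). Tac1, the substance P precursor of enterochromaffin cells, was at 9.19, 6.94, 6.79 and 10.1 FPKM in the WT samples and at 19.4, 23.4, 30.7 and 27.4 FPKM in the MG53-TG samples (limma adjusted p = 0.000257). Of the colon markers, Aqp4, a water channel, was called lower, at 13.8, 29.3, 34.0 and 25.8 FPKM in the WT samples and at 6.32, 9.85, 9.87 and 5.24 FPKM in the MG53-TG samples, while Car1, Hoxb13 and Hoxd13 had no value or were at 0.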
